A study of Mus musculus with 2 samples.

Results

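The S100 proteins described here are 10 of the 32285 genes counted: S100a3, S100a4, S100a6, S100a7a, S100a8, S100a9, S100a10, S100a11, S100a14 and S100a16. They were taken by symbol from the feature table and are given in each of 6 conditions and in each state of the sorted keratinocytes. The series concerns hair follicle stem cells and their progeny in resting and healing mouse skin, with and without the serine synthesis enzyme PHGDH. Single-cell 3′ RNA sequencing was done in 1 capture, in which 6 hashtag antibodies marked 6 pools of sorted cells. All mice were C57B6/J and carried Sox9-CreER and the R26-LSL-YFP reporter, so that YFP marks Sox9-expressing follicle cells and their descendants. The pools combined Phgdh +/+ or Phgdh fl/fl with unwounded skin, skin at 3 days and skin at 5 days after wounding. The labels describe pooled males and females. Ages, the number of mice per pool and the Cre induction scheme were not given in the sources used here.

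S100 proteins are small calcium-binding proteins with a pair of EF-hand motifs that mostly act as dimers and bind a target protein when calcium rises. In skin they are best known from the epidermis. S100A8 and S100A9 form the heterodimer calprotectin, which binds zinc and manganese and is made by neutrophils and by activated keratinocytes. S100A10 pairs with annexin A2, S100A11 with annexin A1 and the cornified envelope, and S100A4 is linked to cell motility and to the cytoskeleton.

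The unwounded gate kept YFP+ cells with high integrin-α6 and with CD34 and CD200, and left out cells bearing SCA1, CD45, CD31, CD117 or CD140a. The wounded gate did without the SCA1, CD34 and CD200 criteria, so the gate and the wound cannot be told apart in any wounded-over-unwounded value below. The +/+ pools held 406 unwounded cells, 1281 cells at 3 days and 1353 cells at 5 days, and the fl/fl pools 662, 523 and 1434. Pools held between 3241223 and 70925244 gene UMIs, where a UMI is 1 tagged RNA molecule. The median was 7174.5 and 7243 UMIs per unwounded cell and between 36277 and 45701.5 per wounded cell. Phgdh, the targeted gene, stood at 54.3, 117 and 138 CPM (a gene's UMIs scaled to 1000000 gene UMIs of the pool) in the +/+ pools and at 25.2, 15.3 and 20.2 CPM in the fl/fl pools, in order of stage. Which Phgdh exons carry loxP sites was not given in the sources used here, so these 3′ counts check the labels only in part. The summed leukocyte markers stood between 4.74 and 10.7 CPM. Cells called female made up 31.1% and 23.7% of the wounded +/+ pools and 0 cells of the other 4. In the unwounded pools 209 of 406 (+/+) and 284 of 662 cells (fl/fl) were called male and the rest had no call. The wounded and unwounded +/+ pools thus differed in called sex too.

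No test was possible, since each condition is a single pool. Levels carry exact Poisson intervals and folds carry exact binomial intervals, all at 95%. These cover counting error between UMIs, not differences between cells or between mice. They treat each UMI as an independent draw, so they are too narrow where few cells hold most of a gene's UMIs. "Higher" and "lower" describe these pools alone. A pool is a sum over cells, so fewer cells of a type and less RNA per cell cannot be told apart in it. A gene was called when its CPM differed by at least 2-fold (wounding and time) or 1.5-fold (genotype). Only genes that averaged 5 CPM or more over both pools were tested in this way.

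All 10 genes lie on chromosome 3 (RefSeq, GRCm38.p6, the assembly behind mm10), in 2 blocks that lie 2824.8 kb apart. The first block spans 168.9 kb and holds 8 members: S100a14 (ENSMUSG00000042306, 90526849 to 90528837), S100a16 (ENSMUSG00000074457, 90537254 to 90543151), S100a3 (ENSMUSG00000001021, 90560356 to 90602706), S100a4 (ENSMUSG00000001020, 90603770 to 90606045), S100a6 (ENSMUSG00000001025, 90612894 to 90614414), S100a7a (ENSMUSG00000063767, 90651925 to 90658130), S100a8 (ENSMUSG00000056054, 90669071 to 90670034) and S100a9 (ENSMUSG00000056071, 90692630 to 90695721). The second block spans 44.2 kb and holds S100a11 (ENSMUSG00000027907, 93520496 to 93526288) and S100a10 (ENSMUSG00000041959, 93555117 to 93564645). The annotated span of S100a3 contains S100a2, and S100a11 has a pseudogene, S100a11-ps, on chromosome 12, so counts of S100a3 and S100a11 carry some uncertainty of assignment. S100a4 and S100a6 are 6.8 kb apart and S100a8 and S100a9 22.6 kb apart. Position did not sort the levels, since neighbours in the first block held both the largest decrease and the largest increases of the family.

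Promoter windows are shown for the genes at the extremes of the wound response and for S100a11, from 250 bases before the annotated start to the first 10 bases of the transcript, written 5′ to 3′ in the direction of transcription. S100a4 is at chr3:90603520-90603779 (plus strand), S100a8 at chr3:90668821-90669080 (plus), S100a9 at chr3:90695712-90695971 (minus) and S100a11 at chr3:93520246-93520505 (plus). Capitals mark every match, on either strand, to a TATA box (TATAAA), an AP-1 motif (TGANTCA), a C/EBP motif (TTGCNNAA), a STAT motif (TTCNNNGAA) or the degenerate 10-letter NF-kB consensus.
S100a4: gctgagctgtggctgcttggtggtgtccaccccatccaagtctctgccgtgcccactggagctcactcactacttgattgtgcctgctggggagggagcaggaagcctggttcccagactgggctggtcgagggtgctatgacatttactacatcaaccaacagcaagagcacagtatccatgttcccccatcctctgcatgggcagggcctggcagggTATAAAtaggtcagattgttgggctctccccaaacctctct
S100a8: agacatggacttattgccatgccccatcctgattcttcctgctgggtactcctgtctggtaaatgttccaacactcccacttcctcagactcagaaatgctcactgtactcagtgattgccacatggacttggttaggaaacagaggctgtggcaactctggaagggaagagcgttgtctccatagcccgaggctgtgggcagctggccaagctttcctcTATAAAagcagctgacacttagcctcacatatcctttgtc
S100a9: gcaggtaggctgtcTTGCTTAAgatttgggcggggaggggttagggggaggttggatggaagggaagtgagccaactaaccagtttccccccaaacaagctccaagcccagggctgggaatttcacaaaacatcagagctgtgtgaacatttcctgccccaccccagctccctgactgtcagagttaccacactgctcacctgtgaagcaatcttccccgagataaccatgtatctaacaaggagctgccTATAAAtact
S100a11: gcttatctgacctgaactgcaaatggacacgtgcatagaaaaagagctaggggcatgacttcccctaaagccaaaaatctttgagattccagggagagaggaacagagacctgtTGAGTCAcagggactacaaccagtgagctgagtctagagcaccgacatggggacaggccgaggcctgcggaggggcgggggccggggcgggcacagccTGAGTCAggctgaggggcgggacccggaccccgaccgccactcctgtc
TATAAA began 31 bases before the start in S100a4, 30 bases before it in S100a8 and at the annotated start itself in S100a9. S100a9 also held TTGCTTAA, a C/EBP match, 236 bases before the start, and S100a11 held TGAGTCA, an AP-1 match, 136 and 38 bases before it. No matches overlapped. Of 32851 mouse promoters searched over the same length, 12.7% held TATAAA, 9.85% the C/EBP letters, 7.03% the AP-1 letters, 7.33% the STAT letters and 4.02% the NF-kB consensus. S100a6 held none of the 5 motifs, and S100a7a held a STAT match, TTCCAGGAA, 169 bases before its start. Of the 4 windows of S100a3, 1 held TATAAA 52 bases before the start, and of the 2 windows of S100a16, 1 held TGAATCA, an AP-1 match, 192 bases before it. A match is a run of letters in this window and not evidence that a factor binds there. Of the 10 members, 8 had a promoter entry; S100a10 and S100a14 had none.

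The family as a whole took a similar share of the RNA in unwounded cells and at 3 days and a smaller share at 5 days. Its make-up differed between unwounded and wounded pools. The 10 members summed to 11860 CPM in unwounded +/+ cells, 12197 CPM at 3 days and 8902 CPM at 5 days, and to 12755, 12619 and 10067 CPM in the fl/fl pools. S100a6, also called calcyclin, supplied between 48.1% and 55.2% of that sum in all 6 pools. In unwounded cells S100a4 supplied 21.7% (+/+) and 26.4% (fl/fl) of it, and in the 4 wounded pools from 0.519% to 0.936%. Counting 1 UMI per molecule at its 3′ end keeps RNA length out of these shares. How well each gene is captured and assigned was not tested, so they compare genes only roughly.

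**Figure D1:**
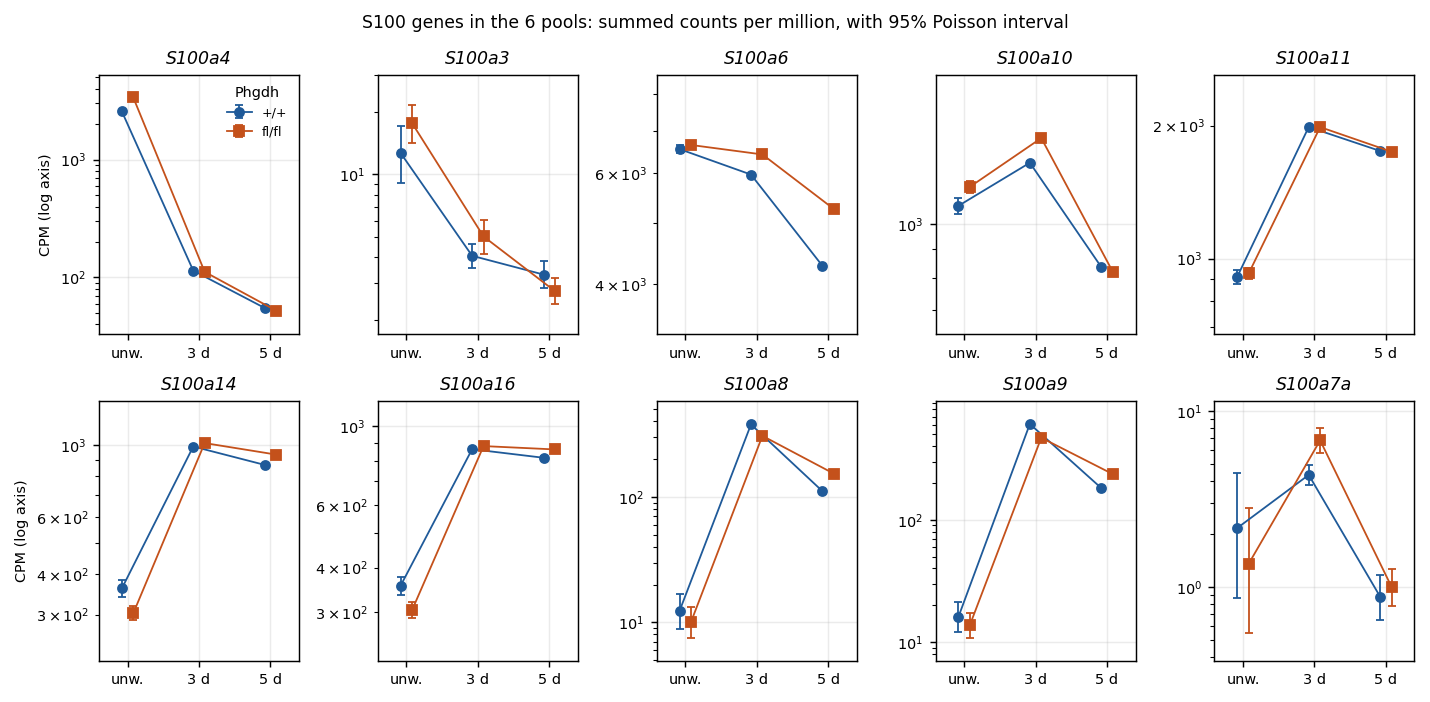
Level of each of the 10 S100 genes in the 6 pools, as CPM on a log axis, with bars for the 95% Poisson interval, blue for +/+ and orange for fl/fl. S100a4 drops from above 2500 CPM in both unwounded pools to 114 CPM or less after wounding, and S100a8 and S100a9 move from under 20 CPM to between 111 and 609 CPM.

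S100a8 and S100a9, the calprotectin subunits, were the members with the largest increase after wounding in both genotypes. S100a8 stood at 12.3 CPM in unwounded +/+ cells (40 UMIs), 378 CPM at 3 days and 111 CPM at 5 days. In the fl/fl pools it stood at 10.1 CPM (52 UMIs), 307 CPM and 153 CPM. S100a9 stood at 16.04, 609 and 182 CPM in the +/+ pools and at 13.7, 469.7 and 237 CPM in the fl/fl pools. Every wounded pool was above both unwounded pools, and every 3-day pool above both 5-day pools. The S100a8 ratio over unwounded cells was 30.7-fold at 3 days in +/+ (log2 4.94, 4.49 to 5.42) and 30.5-fold in fl/fl (log2 4.93, 4.54 to 5.35). At 5 days it was 9.01-fold in +/+ and 15.2-fold in fl/fl. The S100a9 ratios were 37.9-fold and 34.2-fold at 3 days and 11.3-fold and 17.2-fold at 5 days, in the same order. The 3-day and 5-day ratios of a genotype share its unwounded pool.

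Stray RNA in the droplets would give a large part of the unwounded levels of both genes. The interval of each of these levels still lay above the stray RNA estimate. Free RNA, estimated from barcodes too shallow to be cells, would supply 47.8% and 59.95% of the S100a8 level and 48.7% and 58.1% of the S100a9 level in the unwounded +/+ and fl/fl pools. With free RNA subtracted the wounding ratios were larger, so the ratios above depend on a denominator of few UMIs. They depended also on how hashtags were read. With a simple rule of at least 20 hashtag UMIs and at least 70% in the top hashtag, the log2 ratio of S100a8 in fl/fl fell to 1.46 at 3 days and 0.60 at 5 days and that of S100a9 to 1.13 and 0.24, and both 5-day calls were lost. The +/+ ratios of S100a8 kept between 4.62 and 5.83 at 3 days and between 2.87 and 4.06 at 5 days over all alternatives.

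Neutrophils are the blood cells richest in calprotectin, and the CD45 gate was set to leave them out. Their other 8 markers summed to between 0.775 and 3.78 CPM in the 6 pools. A cluster of 10 leukocyte-like cells, with 1794 CPM of these markers, held 2.06% and 3.66% of the S100a8 UMIs in the +/+ pools at 3 and 5 days and 2.82% and 3.49% of those of S100a9. In the wounded fl/fl pools the shares were at most 0.0766%. Nearly all calprotectin RNA of the wounded pools therefore lay in cells outside that cluster.

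Within the wounded pools calprotectin RNA sat in few cells. At 3 days in +/+, 25 of 1281 cells (1.95%) held 50% of the S100a8 UMIs. The same was true of 24 cells at 5 days and of 14 and 17 cells in the fl/fl pools at 3 and 5 days. After each cell was thinned to 3000 UMIs, S100a8 was seen in 18.2% of +/+ cells at 3 days and 11.2% at 5 days, against 3.29% of unwounded cells. The fl/fl shares were 18.1%, 11.4% and 3.28%. Unthinned, the shares were 47.3%, 36.8% and 6.90% in +/+ and 52.2%, 45.3% and 7.55% in fl/fl, at unequal depth.

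The cells were grouped into 19 clusters without using any S100 gene, and clusters were named from marker lists with the suffix -like. Cluster 9 stayed unnamed, because 1 granular marker but 0 wound-activated markers stood among its top 10 genes. It held 120 cells led by Lce3c, Lce3d, Crct1, Cdsn and Cnfn, genes of the late cornifying layers. Of 10 wound-activated markers 9 were raised in it, against 8 in the cluster named wound-activated-like, and of 10 granular markers 4. At Leiden resolution 0.5 the Lce3 genes led a single cluster of 599 cells with all 10 wound-activated markers raised, so the split between cluster 9 and the wound-activated-like cells depends on the resolution. In its 60 cells of the +/+ pool at 3 days S100a8 stood at 2461 CPM and S100a9 at 4380 CPM, the highest levels of any state there. The wound-activated-like cells, which carry the wound keratins Krt6a, Krt6b and Krt16, came next with 784 CPM of S100a8 and 1144 CPM of S100a9. The suprabasal-like cells had 302 and 418 CPM, the upper-follicle-like cells 239 and 317 CPM, and the cycling-like cells 154 and 247 CPM. The bulge-like cells had 8.29 and 10.1 CPM, no more than the unwounded pools. Of the 8 neighbouring pairs in this order of 9 states, 1 had overlapping intervals for S100a8.

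**Figure D2:**
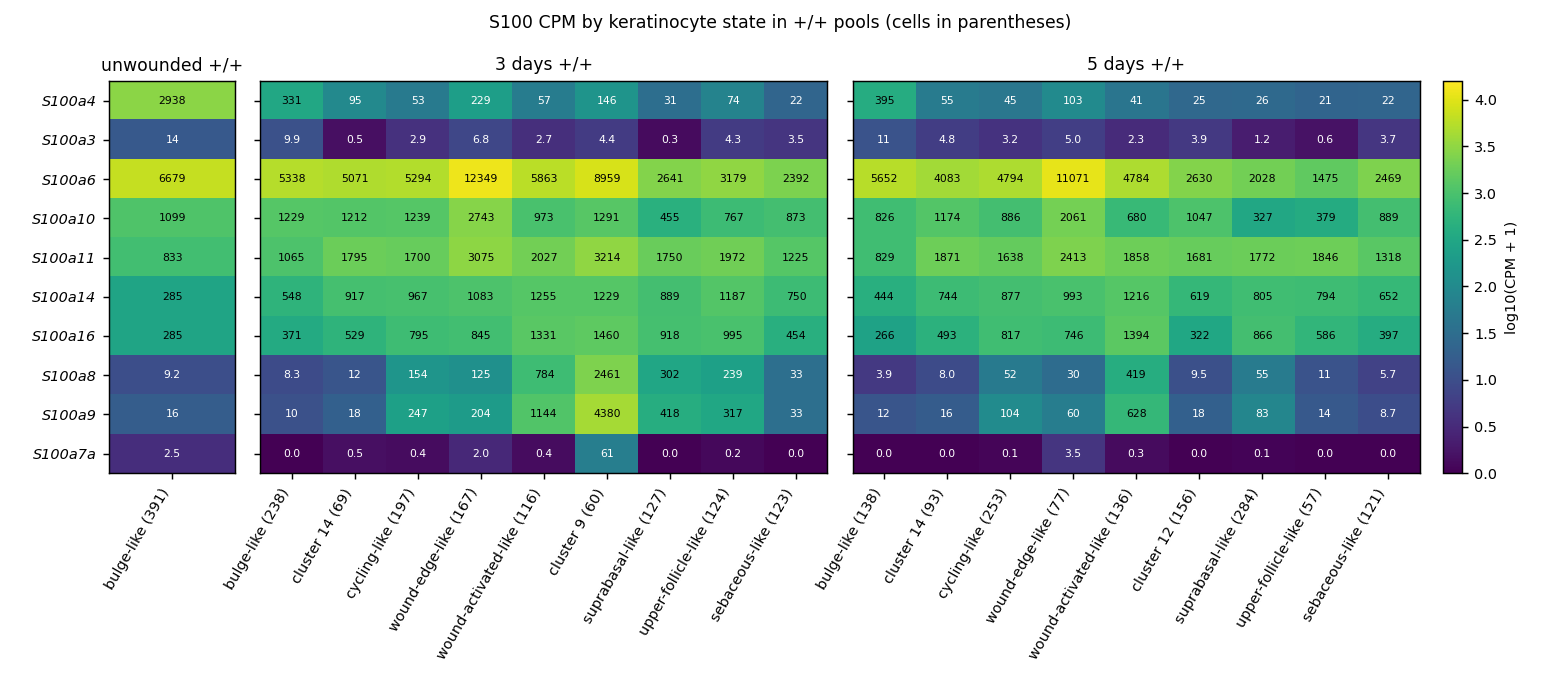
Level of each S100 gene by keratinocyte state in the +/+ pools, colour as log10(CPM + 1) with the CPM printed in each cell and the number of cells in parentheses, for states of at least 50 cells. S100a8 and S100a9 are highest in cluster 9 and the wound-activated-like cells, S100a6 and S100a10 in the wound-edge-like cells, and S100a4 in the unwounded bulge-like cells.

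Cluster 9 was 4.68% of the cells of the +/+ pool at 3 days and held 40.7% of its S100a8 and 45.0% of its S100a9 UMIs. The wound-activated-like cells, 9.06% of the pool, held 28.5% and 25.8%. Both groups were deeper than the pool, with medians of 55028 (cluster 9) and 61484.5 UMIs (wound-activated-like) against 40042. Their shares of cells thus understate their shares of all RNA. In the fl/fl pool at 3 days the same groups held 36.2% and 37.7% of the S100a8 UMIs. At 5 days the wound-activated-like cells held most of it in +/+ (60.02% of S100a8 UMIs) and 49.8% in fl/fl, while cluster 9 was down to 12 and 22 cells. Thinned to equal depth, S100a8 was seen in 68.4% of wounded cluster 9 cells (median 53743.5 UMIs) and 47.4% of wound-activated-like cells (median 60904 UMIs). It was seen in 1.52% of wounded bulge-like cells (median 16193.5 UMIs), which serve as the background here. Neutrophil markers summed to 2.93 CPM in wounded cluster 9 cells, with Csf3r, Ngp, Ltf and Ly6g at 0, and to 1.39 CPM in wounded wound-activated-like cells.

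S100a8 and S100a9 were found in the same cells. Of thinned cells with an S100a8 UMI, 73.6% also had S100a9 in the +/+ pool at 3 days, against 13.01% of the cells without S100a8. The shares were 51.0% against 8.56% in +/+ at 5 days, 69.6% against 11.1% in fl/fl at 3 days and 59.3% against 8.97% in fl/fl at 5 days. There were 1.61, 1.64, 1.53 and 1.54 S100a9 UMIs per S100a8 UMI in these 4 pools, a narrow range across pools that differ in level by several fold. Over 43 units of cluster and pool the levels of both genes correlated with a Pearson r of 0.98 on log2(CPM + 1), a description of units that share a capture and a cell depth.

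**Figure D3:**
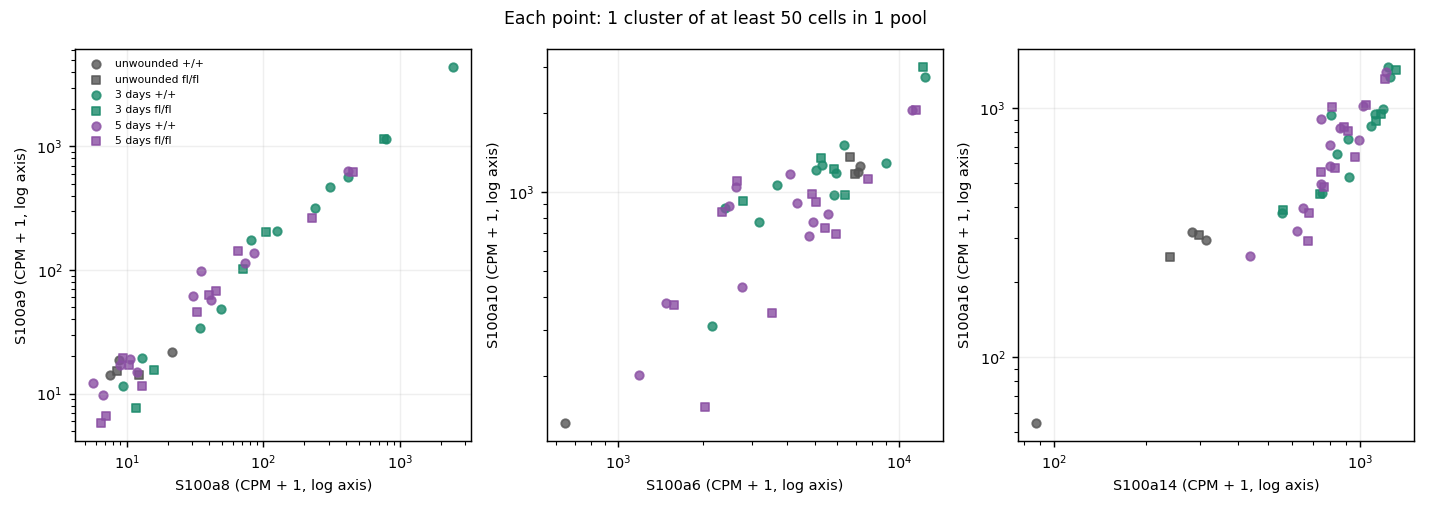
Levels of 3 pairs of S100 genes, S100a8 against S100a9, S100a6 against S100a10 and S100a14 against S100a16, as CPM on log axes over 43 units of 1 cluster in 1 pool. The calprotectin pair follows 1 line over the whole range from under 10 to above 2000 CPM.

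Between 3 and 5 days both subunits were lower in both genotypes, less so in fl/fl. The S100a8 ratio of 5 over 3 days was -1.77 on the log2 scale in +/+ (3.40-fold lower) and -1.001 in fl/fl (2.001-fold lower), and that of S100a9 -1.74 and -0.99. The difference between genotypes in these log2 ratios was 0.77 (0.71 to 0.83) for S100a8 and 0.76 (0.71 to 0.80) for S100a9, with counting error alone in the interval. Members called lower were S100a4, S100a8 and S100a9 in +/+ (3 of 8 tested, where 1.05% of all genes were lower) and S100a4 and S100a8 in fl/fl (2 of 8, background 2.12%). None was called higher, against 0.47% and 0.96% of all genes. S100a8 and S100a9 in fl/fl lie on either side of the 2-fold line with nearly the same ratio. The S100a8 call there was lost under TMM scaling (-0.97), other limits on UMIs or mitochondrial share and the simple hashtag rule. Over the 7 clusters with at least 20 cells in all 4 wounded pools, which leave out cluster 9 and hold 68.9% (+/+) and 78.9% (fl/fl) of the 3-day gene UMIs, the S100a8 ratio was -0.88 in +/+ and -0.64 in fl/fl and that of S100a9 -0.78 and -0.62, short of a call. With the same clusters held at their 3-day mix it was -1.30 and -1.14 for S100a8 and -1.21 and -1.19 for S100a9. Both genotypes thus had larger decreases at the held mix than at their own mix of these clusters.

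Inside single states the decrease was uneven. In wound-activated-like cells S100a8 was at 784 CPM at 3 days and 419 CPM at 5 days in +/+ (log2 -0.90) and at 764 and 451 CPM in fl/fl (log2 -0.76). In wound-edge-like cells it was at 125 and 29.7 CPM in +/+ and at 104 and 31.9 CPM in fl/fl. In upper-follicle-like cells of the +/+ pools it went from 239 to 10.9 CPM (log2 -4.45) and S100a9 from 317 to 13.98 CPM (log2 -4.50). In suprabasal-like +/+ cells S100a8 went from 302 to 55.4 CPM. The states that ended lowest were thus those outside the wound-activated-like cells, which kept more than 400 CPM.

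S100a7a, a mouse member of the psoriasin group of antimicrobial S100 proteins, was with S100a3 the rarest of the 10 and mostly lay in cluster 9 at 3 days. It stood at 2.16 CPM (7 UMIs), 4.32 CPM and 0.881 CPM in the +/+ pools and at 1.35 CPM (7 UMIs), 6.79 CPM and 1.001 CPM in the fl/fl pools. Both 3-day pools were above all other pools, though in +/+ the interval still met that of the unwounded pool. It did not reach a mean of 5 CPM in any comparison of wounding or time, so no call was made there. At 3 days cluster 9 held 88.5% of its UMIs in +/+ and 70.2% in fl/fl, and 5 cells held 50% of them in +/+. Among states of at least 50 cells it was highest in cluster 9 in that +/+ pool (61.2 CPM). In the other wounded pools, where cluster 9 had fewer cells than that, it was highest in the wound-edge-like cells, with 9.95 CPM (fl/fl, 3 days), 3.49 CPM (+/+, 5 days) and 3.76 CPM (fl/fl, 5 days). Calprotectin was highest there in the wound-activated-like cells. In fl/fl over +/+ at 3 days its log2 ratio was 0.65 (0.35 to 0.95), the only tested member past 1.5-fold in any genotype comparison. That call was lost with up to 20% mitochondrial UMIs allowed (0.23), with the simple hashtag rule (0.31), with equal weight per cell (0.36), over clusters of at least 20 cells in both pools (0.498) and without the 5 highest cells of each pool (0.53).

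S100a4, known as fibroblast-specific protein 1 or metastasin although many cell types make it, had the largest decrease of the family. It stood at 2569 CPM in unwounded +/+ cells, 114 CPM at 3 days and 55.0 CPM at 5 days. The fl/fl levels were 3372, 112 and 52.3 CPM. The unwounded and the wounded pools were far from overlapping, and the 5-day pools were below the 3-day pools. In +/+ the wounded level was 22.5-fold lower at 3 days (log2 -4.49, -4.54 to -4.44) and 46.7-fold lower at 5 days. In fl/fl it was 30.2-fold and 64.5-fold lower. From 3 to 5 days it was 2.08-fold lower in +/+ and 2.13-fold lower in fl/fl. Over clusters with at least 20 cells in both pools the log2 ratio was -1.15 in +/+ and -1.09 in fl/fl at each pool's own mix and -0.54 and -0.62 at the 3-day mix, which ends both calls. The +/+ call was also lost with the simple hashtag rule (-0.87) and equal weight per cell (-0.83), and the fl/fl call without the 5 highest cells (-0.96).

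This RNA was spread over most unwounded cells. Thinned to equal depth, S100a4 was seen in 79.0% of unwounded +/+ cells and 86.6% of unwounded fl/fl cells, against 17.1% and 12.5% of +/+ cells at 3 and 5 days and 20.1% and 11.5% of fl/fl cells. Unthinned shares were 82.5% and 89.1% in unwounded cells and between 53.4% and 68.6% in wounded cells. Wounded cluster 12 had S100a4 in 6.31% of thinned cells (median 26985 UMIs). Among states of at least 50 cells the lowest by CPM were the sebaceous-like at 3 days and the upper-follicle-like at 5 days. Free RNA would supply 0.203% and 0.158% of the unwounded levels. The 9 fibroblast markers summed to 477 and 537 CPM in unwounded cells, a sum led by Sparc, against 19.7 to 58.9 CPM after wounding. Col1a2 went the same way, from 26.2 and 29 CPM in the unwounded pools to between 0.183 and 0.494 CPM after wounding. Col1a1 stood at 2.78 and 2.32 CPM in the unwounded pools, while Dcn, Lum, Dpt and Mfap5 were at 0 in both.

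The gate selects bulge cells from unwounded skin, so S100a4 was also compared among bulge-like cells only. They had 2938 CPM (391 cells) and 3714 CPM (638 cells) in the unwounded +/+ and fl/fl pools. In wounds they had 331 CPM (238 cells) and 395 CPM (138 cells) in +/+ and 358 CPM (103 cells) and 245 CPM (47 cells) in fl/fl, at 3 and 5 days. The decrease was 8.87-fold and 7.43-fold in +/+ and 10.4-fold and 15.2-fold in fl/fl, smaller than in whole pools. Different clusters made up this class: clusters 6 and 7 held most of the unwounded and cluster 16 most of the wounded bulge-like cells. Which wounded cells count as bulge-like also depends on the resolution. At Leiden resolution 0.5 the larger bulge-like cluster held 7, 13, 4 and 5 cells of the wounded pools, in the order above. The smaller held at most 1 in each. A cluster of 533 cells there, named melanocyte-like, had 9 of 10 bulge markers raised and 259, 113, 113 and 42 cells of these pools. All values given for wounded bulge-like cells rest on resolution 1. The bulge marker Cd34, which was in the gate of unwounded cells alone, differed by -2.13 and -2.32 on the log2 scale in +/+ and -1.962 and -1.989 in fl/fl over the same cells. Of all genes in the +/+ comparison at 3 days, 17.6% were at least 2-fold lower in wounded bulge-like cells. Among wounded states, S100a4 was highest in the bulge-like cells and next in the wound-edge-like cells (229 and 103 CPM in +/+ at 3 and 5 days), in each of the 3 wounded pools with at least 50 bulge-like cells.

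S100a3, a protein of the hair cuticle, was low throughout but in whole pools moved the same way as its neighbour S100a4. It stood at 12.6 CPM (41 UMIs), 4.07 CPM and 3.30 CPM in the +/+ pools and at 17.6, 5.03 and 2.75 CPM in the fl/fl pools. The wounded levels were 3.11-fold and 3.83-fold lower in +/+ and 3.50-fold and 6.41-fold lower in fl/fl. Both unwounded pools were above every wounded pool. Within +/+ bulge-like cells its log2 ratio was -0.52 (-1.13 to 0.11) at 3 days and -0.39 (-1.21 to 0.40) at 5 days. Both of these intervals included 0. In fl/fl it was -1.19 (-1.95 to -0.49) at 3 days, and at 5 days the 47 wounded cells had 0 CPM. S100a3 and S100a4 correlated with a Pearson r of 0.77 over the 43 units and their gene models lie side by side.

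S100a3 and S100a4 were the only members called lower after wounding, in all 4 comparisons, where the background was 28.1% of 10304 genes (+/+, 3 days), 28.8% (+/+, 5 days), 27.9% (fl/fl, 3 days) and 27.9% (fl/fl, 5 days). Members called higher were S100a8, S100a9, S100a11, S100a14 and S100a16 at 3 days in both genotypes (5 of 9 tested, background 11.8% and 12.3%). At 5 days the same genes without S100a11 were called (4 of 9, background 10.8% and 12.4%). The median log2 ratio of the tested members at 3 days in +/+ was 1.13, against -0.29 over all genes tested. Scaling by TMM, which assumes that most genes do not differ, raised every wounding ratio by 0.53 to 0.60 on the log2 scale and the median of all genes by between 0.57 and 0.63. Calls near the 2-fold line can be gained or lost by it. The count of all genes then turns from more lower to more higher: in +/+ at 3 days from 1217 higher and 2895 lower to 2545 and 1562, and likewise in the other 3 comparisons.

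**Figure D4:**
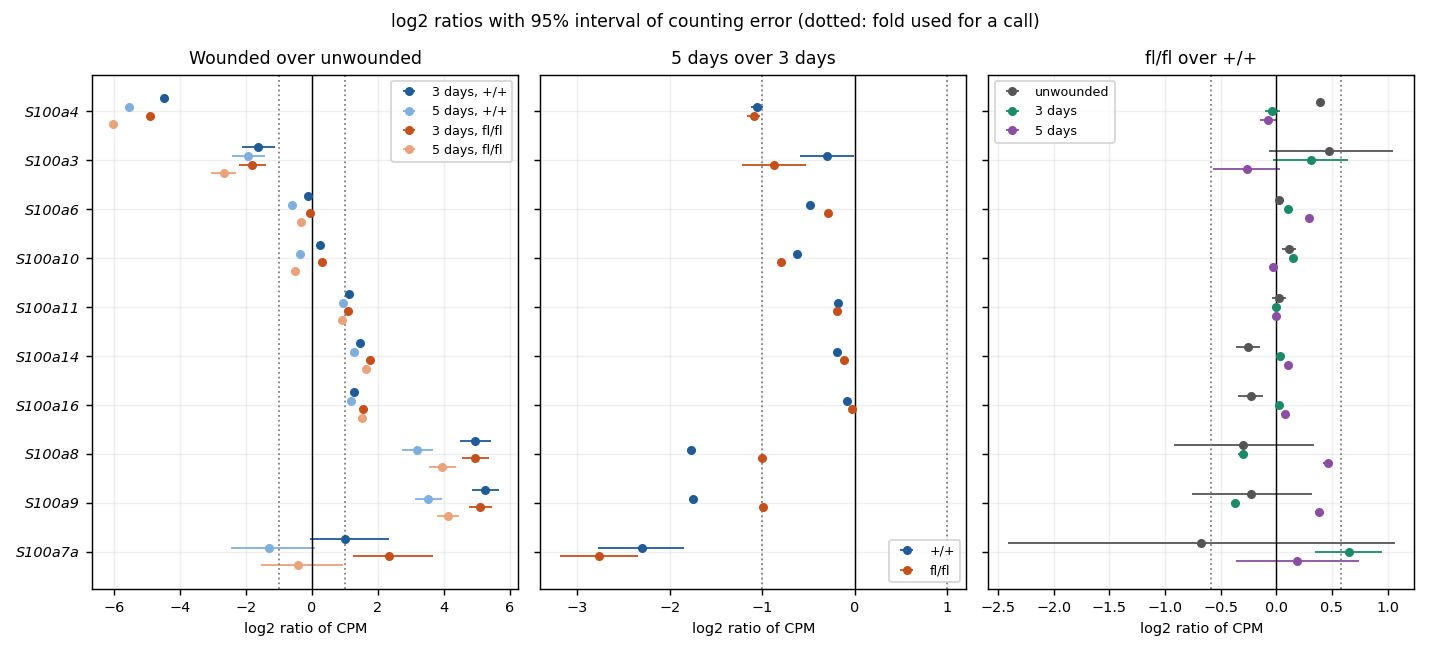
Log2 ratios of CPM for each S100 gene, wounded over unwounded (left), 5 over 3 days (middle) and fl/fl over +/+ (right), with 95% intervals of counting error and dotted lines at the fold used for a call. Wounding ratios run from -6.01 (S100a4) to 5.25 (S100a9), and genotype ratios of all members but S100a7a lie inside the 1.5-fold lines. Wounding ratios of S100a6 and S100a10 lie between -0.61 and 0.29, and those below 0 turn positive under TMM scaling in 5 of 6 cases, the exception being S100a6 at 5 days in +/+.

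S100a14 and S100a16, a related pair found mainly in epithelia, were higher in every wounded pool. S100a14 stood at 361, 989 and 868 CPM in the +/+ pools and at 303, 1013 and 934 CPM in the fl/fl pools. S100a16 stood at 356, 862 and 815 CPM and at 304, 879.6 and 861 CPM. The unwounded pools were well below the wounded pools, which differed little from each other. The S100a14 ratio was 2.74-fold and 2.404-fold in +/+ at 3 and 5 days and 3.35-fold and 3.08-fold in fl/fl, and that of S100a16 was 2.42-fold, 2.29-fold, 2.90-fold and 2.83-fold. The fl/fl ratios exceeded the +/+ ratios by 0.29 and 0.36 (S100a14) and 0.26 and 0.31 (S100a16) on the log2 scale, and lower unwounded fl/fl levels enter both. Those unwounded levels differed by -0.25 and -0.23 in the whole pools, but by -0.10 and -0.002 over clusters with at least 20 cells in both.

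Their states overlapped with those of calprotectin, though over a much narrower range. S100a14 was highest in wound-activated-like cells of each wounded pool, between 1207 and 1312 CPM, and in the +/+ pool at 3 days its neighbour in that order, cluster 9 (1229 CPM), did not differ beyond counting error. S100a16 stood between 1311 and 1417 CPM in wound-activated-like cells and at 1460 CPM in cluster 9 at 3 days in +/+. The lowest state of the wounded +/+ pools was the bulge-like one, with 548 and 444 CPM of S100a14 and 371 and 266 CPM of S100a16 at 3 and 5 days. Within bulge-like cells S100a14 was still higher in wounds by 0.94 and 0.64 (+/+) and 1.06 and 0.89 (fl/fl) on the log2 scale. S100a16 there was higher at 3 days (0.38 and 0.47), and its 5-day intervals included 0. The pair correlated with an r of 0.91 over the 43 units, and S100a14 had its lowest r with S100a4 (-0.57).

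S100a11, which binds annexin A1 and is a cornified envelope component, was near the 2-fold line after wounding. It stood at 910.2, 1985 and 1752 CPM in the +/+ pools and at 926, 1985 and 1745 CPM in the fl/fl pools. The genotypes were almost equal at each stage. Its ratio was 2.18-fold and 2.14-fold at 3 days and 1.93-fold and 1.88-fold at 5 days, so the 5-day values missed the call. Under TMM scaling they were 1.54 (+/+) and 1.48 (fl/fl) on the log2 scale and were called, which made 5 members higher at 5 days in each genotype. In bulge-like cells it was higher at 3 days by 0.35 (+/+) and 0.45 (fl/fl), and at 5 days the intervals included 0. Cluster 9 and the wound-edge-like cells led at 3 days in +/+, with 3214 and 3075 CPM.

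S100a6 and S100a10 stayed within 2-fold between unwounded and wounded pools. S100a6, which binds annexins and the calcyclin-binding protein, stood at 6543, 5964 and 4278 CPM in the +/+ pools and at 6642, 6417 and 5261 CPM in the fl/fl pools. Its wounding ratios were -0.13 and -0.61 in +/+ and -0.05 and -0.34 in fl/fl on the log2 scale, and under TMM scaling 0.43, -0.01, 0.48 and 0.23. S100a10, the annexin A2 partner that brings plasminogen to the cell surface, stood at 1077, 1287 and 836 CPM and at 1165, 1425 and 821 CPM. It was higher at 3 days by 0.26 (+/+) and 0.29 (fl/fl) and differed by -0.36 and -0.51 at 5 days, values that turn to 0.23 and 0.06 under TMM scaling. From 3 to 5 days S100a10 was 1.54-fold lower in +/+ and 1.74-fold lower in fl/fl, the same way under each alternative.

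Both genes differed more between states than between pools. S100a6 was at 12349 CPM in the wound-edge-like cells of the +/+ pool at 3 days, which carry the metalloproteinase genes Mmp13, Mmp9 and Mmp1b, and at 2392 CPM in the sebaceous-like cells. S100a10 was at 2743 CPM in the same wound-edge-like cells and at 455 CPM in the suprabasal-like cells. Wound-edge-like cells were the highest state for both genes in all 4 wounded pools, with 11071 CPM (+/+, 5 days), 12121 CPM (fl/fl, 3 days) and 11493 CPM (fl/fl, 5 days) of S100a6. These 167 cells were 13.04% of the +/+ pool at 3 days and held 31.9% of its S100a6 UMIs, a share that was 19.0% at 5 days, when 77 such cells were left. At 3 days their median of 47294 UMIs was above the 40042 of the pool, so their share of cells understates their share of all RNA. Over clusters with at least 20 cells in both pools, the 5-over-3-day ratio of S100a6 was -0.45 in +/+ and -0.19 in fl/fl at each pool's own mix and -0.19 and -0.07 at the 3-day mix. That of S100a10 was -0.64 and -0.73, and -0.43 and -0.53 at the 3-day mix. The 2 genes correlated with an r of 0.84 over the units.

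Tested S100 levels of fl/fl pools lay within 1.5-fold of the +/+ pools at every stage, S100a7a at 3 days apart. That is 1 of 9 tested members higher at 3 days, where 0.214% of all genes were higher and 1.16% lower. No member was called in unwounded cells (0 of 9, background 2.06% higher and 4.43% lower) or at 5 days (0 of 8, background 0.291% and 2.56%). No member reached 2-fold in either direction, against 0.44% of all genes higher and 0.986% lower in unwounded cells, 0.107% and 0.267% at 3 days and 0.0432% and 0.907% at 5 days. In unwounded cells, on few UMIs, S100a8 was called lower with male cells alone (log2 -0.74), with at most 5% mitochondrial UMIs (-0.99) and with free RNA subtracted (-0.68), and S100a9 with at least 2000 UMIs (-0.69). With the simple hashtag rule both were called higher there, at 3.51 and 3.46. Over all genes in unwounded cells, 215 were called higher and 463 lower, and 221 and 293 under TMM scaling. The smaller differences are given as values below.

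In unwounded cells S100a4 was 1.31-fold higher in fl/fl (log2 0.39, 0.35 to 0.43), and it kept between 0.25 and 0.50 under every alternative. The same direction was seen within cluster 6 (4059 against 3249 CPM) and cluster 7 (3854 against 3146 CPM), the largest bulge-like clusters. Cluster 18, bulge-like cells of low UMI number, held 51 of the 406 unwounded +/+ cells and had only 119.5 CPM of S100a4. S100a14 and S100a16 were lower in the unwounded fl/fl pool, by -0.25 (-0.36 to -0.14) and -0.23 (-0.34 to -0.12), and S100a16 became 0.05 with equal weight per cell. Over clusters with at least 20 cells in both pools, each at its own mix, the values were -0.10 and -0.002. In bulge-like cells S100a14 stood at 285 (+/+) and 266 CPM (fl/fl) and S100a16 at 285 and 283 CPM. A single cell held 10.2% of the S100a14 UMIs of the unwounded +/+ pool, and a single cell 15.3% of those of S100a16. In the whole pools S100a11 (0.03) and S100a6 (0.02) had intervals that included 0.

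At 3 days calprotectin was lower in fl/fl, and at 5 days higher. S100a8 was 1.23-fold lower at 3 days (log2 -0.30, -0.34 to -0.26) and 1.38-fold higher at 5 days (log2 0.46, 0.42 to 0.51). S100a9 was 1.30-fold lower (log2 -0.37) and 1.30-fold higher (log2 0.38). The 3-day sign held under each alternative, with S100a8 between -0.57 and -0.08, but the 5-day values became -0.05 and -0.08 with equal weight per cell. With that weighting S100a9 at 3 days was -0.69, past 1.5-fold. Over clusters with at least 20 cells in both pools, held at the +/+ mix, S100a8 was -0.08 at 3 days and 0.27 at 5 days. S100a9 was -0.17 and 0.09 there. At each pool's own mix of these clusters the values were -0.32 and 0.29 for S100a8 and -0.39 and 0.15 for S100a9. The part of cluster mix in the genotype values was not tested further. Cells called female were found in the wounded +/+ pools and in no fl/fl pool. Within the +/+ pool at 3 days female cells had 317 CPM and male cells 391 CPM of S100a8, and at 5 days 80.2 and 113 CPM, so the part of sex in the genotype values was not tested beyond the repeat with male cells.

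By state these differences were local and not of 1 sign. In wound-activated-like cells the genotypes were near equal, with 784 (+/+) and 764 CPM (fl/fl) of S100a8 at 3 days and 419 and 451 CPM at 5 days. In cycling-like cells at 3 days S100a8 was at 154 CPM in +/+ and 65.8 CPM in fl/fl (log2 -1.22), and S100a9 at 247 and 83.0 CPM (log2 -1.57), where 3.10% of all genes were called lower. Of these cells cluster 4 made up 79 of 197 in +/+ and 53 of 85 in fl/fl, and within it S100a8 was at 305 and 70.2 CPM. In suprabasal-like cells at 5 days S100a8 was at 55.4 CPM in +/+ and 121 CPM in fl/fl (log2 1.13, 0.997 to 1.264), where 0.972% of all genes were called higher. Within that class it was cluster 15, rich in Flg, that differed, with 72.6 against 225 CPM, while cluster 1 had 40.5 and 44.0 CPM. S100a6 was higher in fl/fl at 5 days by 0.30 in the whole pools, by 0.31 in wound-activated-like and by 0.51 in suprabasal-like cells.

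The genes around the family in its pathways are given for wounded over unwounded +/+ cells at 3 and 5 days unless stated. Of the 16 annexins and other S100 partners, 4 were called higher and 2 lower at 3 days, and 3 and 2 at 5 days (medians 0.48 and 0.33, against -0.29 and -0.34 over all genes). The shares of all genes called were 11.8% higher and 28.1% lower at 3 days and 10.8% and 28.8% at 5 days, which also holds for the lists that follow. Anxa1, the S100A11 partner and a membrane-binding protein, stood at 899.7, 2164 and 1612 CPM (log2 1.27 and 0.84). Anxa2, the S100A10 partner, stood at 1134, 1802 and 1457 CPM (0.67 and 0.36). TMM scaling adds 0.56 and 0.60 to every ratio of the 3-day and 5-day comparisons, and would call Anxa1 also at 5 days and Anxa2 at 3 days. Anxa8 went the other way, from 965 to 420.2 and 353 CPM (-1.20 and -1.45), calls that TMM scaling would end. Ahnak, a large scaffold that binds the S100A10 and annexin A2 complex, showed no difference beyond counting error (-0.02 and 0.02) before TMM scaling. The cornified envelope cross-linkers Tgm1 and Tgm3 were called higher, with ratios of 2.13 and 1.15 (Tgm1) and 3.35 and 3.69 (Tgm3), as was Anxa3 with 2.01 and 1.87.

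Among 6 receptors tested, 1 was called higher and 2 lower at each day. Ager, the receptor RAGE, and Tlr4 were below the minimum level and were not tested. Bsg, which binds S100A9, was at 234, 409.7 and 369.7 CPM (log2 0.81 and 0.66), short of a call that TMM scaling would give. Alcam and Emb, cell adhesion proteins that bind S100 ligands, were lower: Alcam fell by 2.97 and 3.37 on the log2 scale, from 598 CPM, and Emb by 1.21 and 1.68, of which TMM scaling would end the 3-day call. Of 13 upstream receptors and factors, 3 were called higher and 1 lower at each day. They included Cebpb, a factor of the C/EBP family, from 113 to 413 and 394 CPM (1.87 and 1.81), and Nfkbiz, an NF-kB cofactor of IL-17 signalling, from 71.3 to 156 and 172 CPM (1.13 and 1.27). In fl/fl cells the Nfkbiz ratios were 0.46 and 0.83, below a call that TMM scaling would give at 5 days.

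Of 11 other alarmins and antimicrobial genes of keratinocytes in the feature table, 5 at 3 days and 4 at 5 days reached the minimum level. A gene near 0 in unwounded cells reaches it only where it is high after wounding, so nothing is read from how many of these were higher. The protease inhibitor Slpi stood at 8.64, 192 and 125 CPM, the cytokine Il24 at 8.33, 133 and 54.9 CPM, and Defb1, a beta-defensin, at 8.64, 129 and 129 CPM. Slpi and Il24 were, like calprotectin, higher at 3 than at 5 days. Among calmodulin-type genes Calm4, a suprabasal calcium sensor, went from 86.7 to 909 and 1149 CPM, and Calml3 fell by 1.998 and 1.697 on the log2 scale. Of the other S100 genes only S100a1 and S100a13 reached 5 CPM. S100a1 stood at 82.7, 35.3 and 21.8 CPM (log2 -1.23, a call that TMM scaling would end, and -1.92) and S100a13 at 35.8, 58.2 and 45.5 CPM (0.70, which TMM scaling would call, and 0.35).

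Genes whose levels followed each member most closely over the 43 units were named from 5946 candidates of at least 20 CPM. They share the capture, the cells and the depth with the member, and r is a description. For S100a4 they were Crip1 (0.90), Cd34 (0.89) and Trappc3 (0.87), for S100a8 Sprr1b and Klk10 (0.94 each) and Sprr2h (0.93), and for S100a9 Sprr1b (0.95), Sprr2h and Rab11fip1 (0.94 each). Sprr1b and Sprr2h encode small proline-rich precursors of the cornified envelope. For S100a6 they were Capg (0.91), Fth1 and Capns1 (0.89 each), and for S100a10 Fth1 (0.94), Ywhah (0.92) and Cd151 (0.90). S100a14 was followed by Eif4ebp1, Polr1d and Eif6 (0.97, 0.97 and 0.96) and S100a16 by Dynll1, Mpzl2 and Mfsd5 (0.98, 0.97 and 0.96). For S100a11 they were Golga7, Sec61b and Bsg (0.91 each).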

How the data were processed

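The authors deposited raw UMI counts per gene and hashtag for 2997303 barcodes. Per the submitters' processing notes, Cell Ranger 7.1.0, Seurat 4.3.0 and the mm10 build were used; other steps were not given in the sources used here. Of 9880 barcodes of 1000 or more gene UMIs, 6900 had 500 or more genes and no more than 10% of UMIs from mitochondrial genes and were used. HTODemux (Seurat 5.3.0, R 4.3.3, quantile 0.99) gave 5659 singlets, which alone were used, 503 doublets and 738 negatives. No further doublet caller was run. The pool of each singlet was taken from the hashtag names in the deposited feature table. Per-sample columns not used numbered 0.

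UMIs were summed per pool or state and scaled to CPM, with exact Poisson, binomial and Clopper-Pearson intervals (scipy 1.17.1, Python 3.11.15). Free RNA came from 65043 barcodes of 100 or more but under 400 UMIs. Clusters (scanpy 1.11.5: 2000 variable genes, 30 components, 15 neighbours, Leiden resolution 1) were built without S100 genes. A name needed 3 or more raised markers of its list, at 10 CPM or more and 2-fold or more above the other cells. It also needed 2 or more list genes among the cluster's top 10 genes, or 2 of every 3 listed markers raised. A cluster stayed unnamed where another list had more genes in that top 10, or where it was shallow and its list had none there. States under 50 cells in a pool were left out, the bulge-like fl/fl cells at 5 days apart. Comparisons were wounded over unwounded, 5 over 3 days and fl/fl over +/+. A cell was female by 2 or more Xist UMIs with no more than 1 Y-linked UMI, and male by the reverse. The calculation was tested on simulated counts: 200 of 200 genes set to a log2 change of 2 were recovered for 3 days over unwounded in +/+. In that run 6 unchanged genes were called. The simulated counts held counting error alone and changes well past the 2-fold line. They check the arithmetic and not differences between cells or pools.

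Named were all members, other S100 genes of at least 5 CPM, fixed partner genes (Anxa1, Anxa2, Anxa8, Ahnak, Ager, Tlr4, Bsg, Calm4), up to 4 genes per list of at least 20 CPM with the largest ratios, and the 3 genes of most like pattern. Members and lists were chosen with earlier results of these data known. Alternatives were UMI minimum 2000, mitochondrial maximum 5% or 20%, a simple hashtag rule, scaling by TMM (edgeR 4.0.16), giving each cell equal weight, free RNA subtracted, no other cell types, without the 5 highest cells, male cells, other CPM minimums, Leiden resolution 0.5, S100 genes in clustering, and thinning to 5000 UMIs. Il36a, Il36g, Calml5 and Krt85 matched no symbol of the feature table. Figures used matplotlib 3.10.9.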

Additional observations from a re-analysis of the deposited data

Results flagged for a closer look

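Some genotype differences had intervals of counting error on opposite sides of 0 at different stages. With 1 pool per condition the difference between stages was not tested, and the values describe these pools. The log2 ratio of fl/fl over +/+ for S100a8 was -0.30 at 3 days and 0.46 at 5 days, and for S100a9 -0.37 and 0.38. S100a4 stood at 0.39 in unwounded cells and -0.07 at 5 days. S100a10 stood at 0.11 in unwounded cells, 0.15 at 3 days and -0.03 at 5 days. S100a14 stood at -0.25 in unwounded cells, 0.04 at 3 days and 0.11 at 5 days, and S100a16 at -0.23, 0.03 and 0.08. The S100a8 and S100a9 values at 5 days became -0.05 and -0.08 with equal weight per cell, the S100a4 value at 5 days -0.62, and the S100a16 value in unwounded cells 0.05. Over clusters with at least 20 cells in both pools, at their own mix, the unwounded values of S100a14 and S100a16 were -0.10 and -0.002. Held at the +/+ mix of such clusters, S100a8 was -0.08 at 3 days and 0.27 at 5 days, and S100a9 -0.17 and 0.09.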

How the results depend on the processing

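No paired analysis was possible because each condition is 1 pool and no replicate numbers are shared. The direction of a member's ratio was kept in 428 of 440 repeats for wounding, 294 of 300 for time and 354 of 390 for genotype; among ratios past the fold it was kept in 318 of 319, 103 of 105 and 24 of 26. Direction and call together were kept in 308 of 319, 84 of 105 and 18 of 26. The reversals of such ratios were in S100a7a: 0.13 at 5 days over unwounded in +/+ with at most 5% mitochondrial UMIs, 0.30 and 0.46 at 5 over 3 days in +/+ over clusters of at least 20 cells in both or all 4 wounded pools, held at the 3-day mix (both sets leave out cluster 9, and at each pool's own mix the values were -0.51 and -0.13), and 0.44 (5% mitochondrial) and 1.82 (simple hashtag rule) for fl/fl over +/+ in unwounded cells. With a minimum mean of 50 CPM, members called lower after wounding numbered 1 in each comparison and members higher in fl/fl at 3 days 0. TMM scaling gave 5 members higher at 5 days over unwounded in each genotype, and left 1 member lower at 5 over 3 days in fl/fl. With no minimum CPM, and with male cells, 1 member was lower in unwounded fl/fl.

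Counts of all genes moved more. Wounded over unwounded, between 1102 and 1261 genes were higher and between 2835 and 2947 lower; TMM gave 2452 to 2545 and 1542 to 1600, no minimum 1798 to 2149 and 6135 to 6543, and 50 CPM 369 to 439 and 619 to 658. For 5 over 3 days 44 higher and 98 lower (+/+) and 89 and 197 (fl/fl) became 1003 and 1650, and 1085 and 2052, with no minimum and 4 and 23, and 10 and 35, with 50 CPM; male cells gave 67 higher in +/+. For fl/fl over +/+ in unwounded cells 215 higher and 463 lower became 1252 and 2342 (no minimum), 20 and 31 (50 CPM), 543 and 746 (male cells) and, under TMM, 293 lower. At 3 days 20 and 108 became 1918 and 2123, 3 and 16, and 44 and 62 in that order, and at 5 days 27 and 237 became 1871 and 2831, 2 and 37, and, in male cells, 123 lower. The cause of these moves was not tested. Leaving out cluster 18, keeping clusters of at least 20 cells, holding their mix and counting in male cells were chosen after seeing the data. Depth limits S100a7a and the unwounded levels of S100a3, S100a8 and S100a9, which rest on 7 to 91 UMIs.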
